A study of Mus musculus with 18 samples.

Results

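The miR-26 family was followed here through the chimeric reads that name miR-26a-5p or miR-26b-5p as the microRNA (miRNA). Reads were selected by the miRNA name that the deposited files give for each of them, over the 6 libraries made from a plain Argonaute 2 (Ago2) immunoprecipitation (IP). Of 411434 chimeric reads in these libraries, 5874 named miR-26a-5p. None named miR-26b-5p, in these libraries or in any of the 12 libraries analysed (1190995 reads), so that all values below are those of reads named miR-26a-5p, called miR-26a.

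The assay, miR-eCLIP, crosslinks RNA to Ago2 with UV light, precipitates Ago2, and joins the miRNA to the RNA fragment that shares the protein, so that a single read names the miRNA and places its target. Thymocytes of mice aged 6 weeks, kept free of specific pathogens, were crosslinked at 254 nm. The wild type was C57BL/6. The knockout was B6.Mirc14tm1.1Ankr, labelled miR181a/b-1-KO, a strain without the Mir181a-1 and Mir181b-1 genes, and the labels name no change at the miR-26 genes. Each genotype had 3 Ago2 IP libraries and 3 further libraries enriched for miR-181-5p, and 6 input samples were not analysed here. The labels do not say whether replicates came from separate mice, so that p-values measure at most the spread between these libraries, which may be technical.

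miR-26a and miR-26b are broadly expressed miRNAs encoded in introns of Ctdspl, Ctdsp2 and Ctdsp1, a family of small phosphatases that act on RNA polymerase. Their targets described in other tissues include the histone methyltransferase Ezh2, cyclins and the DNA demethylases of the Tet family. Ago2 loaded with a miRNA pairs with target RNA chiefly through the seed, the bases near the 5′ end of the miRNA, and lowers the stability or translation of the target.

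The mature sequences of both family members, from RefSeq (GRCm38.p6), show why they are treated as a family. Each is printed 5′ to 3′, and the capitals mark the seed, bases 2 to 8.
mmu-miR-26a-5p: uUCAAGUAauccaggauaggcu
mmu-miR-26b-5p: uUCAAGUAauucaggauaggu
Of the 1679 mature mouse names in the RefSeq table, only these 2 carry this seed. The 22-base miR-26a and the 21-base miR-26b were identical at 19 of 21 shared positions, and the differences, counted from 1 at the 5′ end of miR-26a, are C11U and C21U. Mature miR-26a has 2 loci, in Mir26a-1 at chr9:119031811-119031832 and in Mir26a-2 at chr10:126995543-126995564, and miR-26b has 1 locus, in Mir26b at chr1:74394324-74394344, all on the plus strand. How the submitters told such close sequences apart is not given in the sources used here. Over the 6 Ago2 IP libraries, 0 reads of miR-26b allow a share of up to 0.000888% of the reads outside the miR-181-5p family (3 reads of 337876). That limit covers counting alone and holds only if the naming could return miR-26b, which is not known. Whether reads of miR-26b were named miR-26a cannot be told here.

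miR-26a was among the more frequent miRNAs in thymocyte Ago2, and its mean share differed between genotypes by less than the spread of the knockout libraries. As a check of the labels, the log2 change in the knockout was -6.12 for miR-181a-5p and -5.18 for miR-181b-5p. The Ago2 IP libraries of the wild type held 1405, 804 and 511 miR-26a reads, and those of the knockout 1188, 1095 and 871. The knockout removes most miR-181 reads and with them a large part of each library, so shares are given of the reads outside the miR-181-5p family, called non-181 reads (29782 to 82339 a library). On that scale miR-26a made up 1.71%, 1.68% and 1.72% in the wild type and 1.98%, 1.64% and 1.70% in the knockout. The first knockout library stood above the other 5, and its 95% Wilson interval (1.872% to 2.10%) began just above the highest of theirs, that of the third wild-type library (1.57% to 1.870%). Intervals and floors cover counting error only.

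The means were 1.70% ± 0.0159 (SD, n = 3) in the wild type and 1.77% ± 0.182 (SD, n = 3) in the knockout, a difference of 0.0705 percentage points (exact two-sided permutation test, p = 0.9, adjusted to 1 over 2 tests). The smallest p that 3 against 3 libraries allow is 0.1. Without the first knockout library the difference was -0.0334 points. Of all chimeric reads, miR-181 included, miR-26a was 1.17% ± 0.0170 (SD, n = 3) in the wild type and 1.75% ± 0.180 (SD, n = 3) in the knockout, and these groups did not overlap. That denominator holds the miR-181 reads that the knockout lacks.

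Among the non-181 miRNAs, miR-26a took rank 11 to 13 in each library and rank 13 over all 6. Its neighbours in that order were let-7b-5p with 5890 reads above it and miR-30c-5p with 5583 below it. Over the wild-type libraries miR-30c-5p ranged from 1.64% to 1.83% and overlapped miR-26a, while let-7b-5p ranged from 1.503% to 1.63% and lay below miR-26a in every library. In the knockout the ranges of let-7b-5p (1.68% to 2.08%) and miR-26a overlapped, so that rank 12 and rank 13 were not set apart beyond the spread.

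In the edgeR fit across all 123 tested miRNAs, 10 were called at an adjusted p of at most 0.05 (8.13%). miR-26a was not among them: its knockout change was 0.015 on the log2 scale (SE 0.072, quasi-likelihood test, Benjamini-Hochberg adjusted p = 0.886). In the order of log2 changes it ranked 57 of 119 non-181 miRNAs, whose median was -0.010 and whose quartiles were -0.16 and 0.26. The direction of so small a change differed between settings, at -0.04 without the filter on low counts and -0.06 without the first knockout library. Scaled to all reads, which the loss of miR-181 lowers, the same libraries gave 0.57 (edgeR adjusted p = 5.44e-06).

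**Figure D1:**
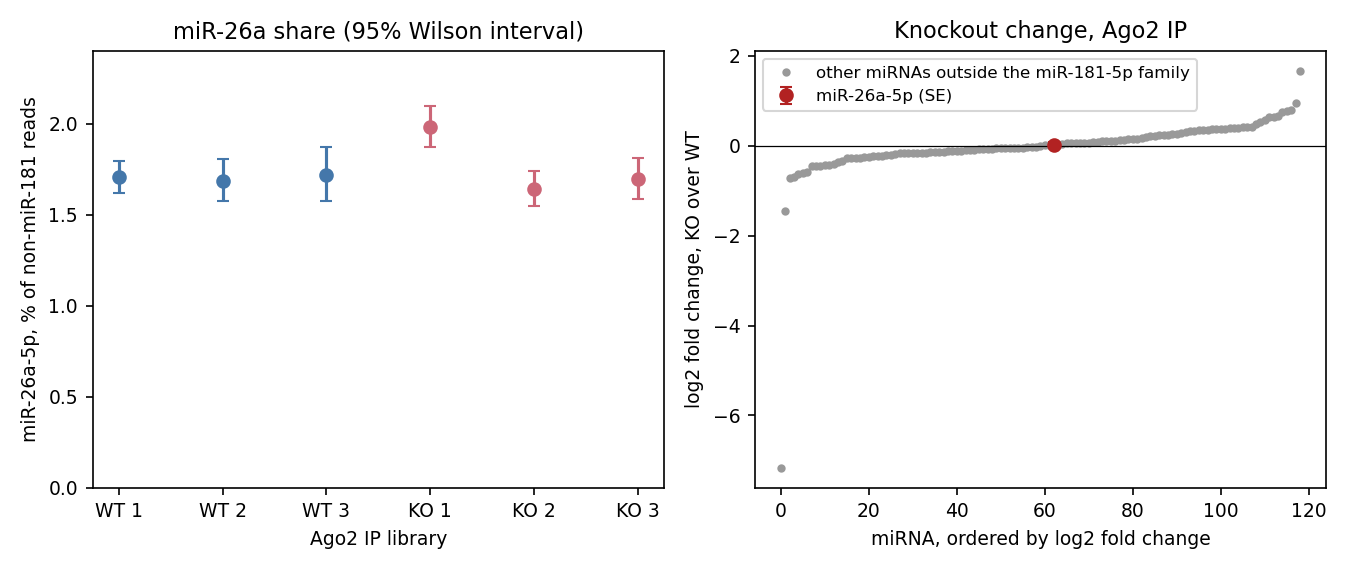
Left, miR-26a as a percentage of the non-181 reads in each Ago2 IP library (WT, wild type; KO, knockout), with 95% Wilson intervals; 5 libraries lie between 1.64% and 1.72% and the first knockout library at 1.98%. Right, the log2 fold change of knockout over wild type for 119 miRNAs outside the miR-181-5p family in rising order, with miR-26a (0.015, bar 1 SE) near the middle; the lowest point is miR-181a-1-3p at -7.17, the other arm of a deleted hairpin.

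In the libraries enriched for miR-181-5p, miR-26a was seen at low counts, with 55, 51 and 27 reads in the wild type and 93, 109 and 35 in the knockout. These were 1.73% ± 0.216 (SD, n = 3) and 2.17% ± 0.368 (SD, n = 3) of their non-181 reads. The groups overlapped, and both were near the shares in the Ago2 IP. They were not tested further.

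The target reads of miR-26a were spread thinly. Clusters were made from the reads of all miRNAs, miR-181 included, in the 12 libraries, joined where positions on a strand lay at most 20 nt apart. The 5874 miR-26a reads fell into 4829 of these clusters. Of the 4829, 4458 held a single miR-26a read, 12 held at least 10 and 8 had a miR-26a read in all 6 libraries. The 10 largest clusters held 6.55% of the reads. Of the reads, 93.8% could be assigned to 1 gene span (the stretch from the start to the end of a gene in the RefSeq table of GRCm38.p6, introns included). They touched 2543 gene spans, 1549 of them with 1 read and 30 of them with a read in every library. Protein-coding spans held 90.9% of miR-26a reads and 89.2% of the reads of other non-181 miRNAs.

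The largest miR-26a site by far lay in Rps12, which encodes a protein of the small ribosomal subunit. The cluster spans chr10:23786474-23786509 on the minus strand and lies wholly within a small nucleolar RNA gene of the annotation (LOC115487513, chr10:23786470-23786543), which itself lies inside the Rps12 span. It held 35, 19 and 22 miR-26a reads in the wild type and 50, 31 and 33 in the knockout, so that every library contributed. miR-26a made up 190 of the 195 non-181 reads there (97.4%, 95% Wilson interval 94.1% to 98.9%). Of the 190, 136 (71.6%) lay at a single position, and 45 remained when reads of the same position, strand and library were counted once. The reads cannot be divided between the snoRNA and the precursor of the ribosomal protein mRNA.

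The next 3 clusters belonged to Reep4, Pim1 and Xrcc4, and miR-26a was the main miRNA in each. Reep4 encodes a protein that keeps the endoplasmic reticulum away from chromosomes in mitosis, and its cluster at chr14:70548691-70548773 (plus strand) held 11, 2 and 2 reads in the wild type and 5, 5 and 11 in the knockout. miR-26a made up 36 of its 39 non-181 reads (92.3%, interval 79.7% to 97.3%). The genotypes overlapped, and the first wild-type and the third knockout libraries were the highest.

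Pim1 encodes a serine/threonine kinase induced by cytokine signals. Its cluster at chr17:29495080-29495188 (plus strand), centred 958 nt before the 3′ end of the span, held 10, 3 and 0 miR-26a reads in the wild type and 7, 7 and 5 in the knockout. That was 32 of 52 non-181 reads (61.5%, interval 48.0% to 73.5%), with miR-20a-5p next at 4 reads. The third wild-type library, the shallowest, had no read.

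Xrcc4 encodes the partner of DNA ligase in non-homologous end joining, which closes the breaks made by V(D)J recombination in thymocytes. The cluster at chr13:89900623-89900755 (minus strand) was centred 51761 nt from the 3′ end of the span. It held 7, 7 and 3 reads in the wild type and 5, 4 and 5 in the knockout, which is 31 of 39 non-181 reads (79.5%, interval 64.5% to 89.2%). All 6 libraries contributed at like levels, and the reads began at 23 positions. Whether the site is exonic or intronic was not analysed here, since the annotation used holds gene spans alone.

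Of the other 6 clusters among the 10 largest, miR-26a made up over 50% of the non-181 reads in the pair in Rcsd1, which encodes a protein that binds actin-capping protein, and Tram1, which encodes a membrane protein of the channel that takes new proteins into the endoplasmic reticulum. It made up 13 of 18 non-181 reads at chr1:165649326-165649376 in Rcsd1 and 11 of 12 at chr1:13571802-13571894 in Tram1. In the remaining 4 it made up less than 50%. It gave 21 of 133 reads in the ribosomal RNA pseudogene Rn18s-rs5 and 21 of 72 in Satb1, which encodes a chromatin organiser of thymocytes and where the next miRNA, miR-142a-3p, had 15. It gave 15 of 117 in Rac2, a small GTPase of blood cells, where let-7i-5p led with 80 reads, and 15 of 95 in Laptm5, a lysosomal protein that lowers the T cell receptor at the surface.

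**Figure D2:**
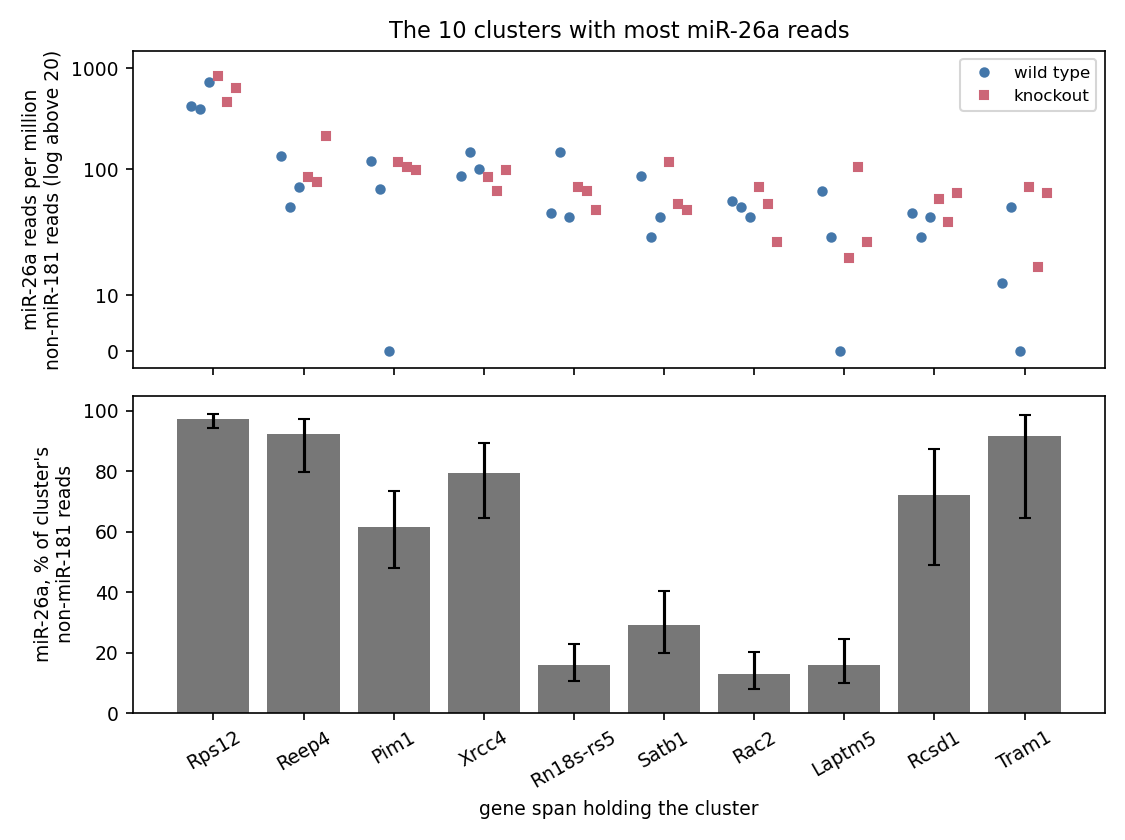
Top, miR-26a reads per 1000000 non-181 reads in each of the 3 wild-type and 3 knockout Ago2 IP libraries at the 10 clusters with most miR-26a reads (axis linear up to 20 and logarithmic above). Bottom, miR-26a as a percentage of all non-181 reads of the cluster, with 95% Wilson intervals; the genotypes overlap at all 10 clusters, and the percentage runs from 97.4% in Rps12 to 12.8% in Rac2.

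Which gene spans were bound by miR-26a out of proportion was then asked by setting its reads against those of all other non-181 miRNAs in the same gene span and library. The test used 3387 gene spans with at least 20 reads of other miRNAs. It was chosen after no read was found to name miR-26b, in place of a planned comparison of the family members. Of the 2543 gene spans with a miR-26a read, 1736 were tested, and the other 807, with 1022 miR-26a reads, had too few reads of other miRNAs. In bulk libraries, a gene seen in fewer cells and a gene with less RNA per cell cannot be told apart.

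The edgeR fit called 31 gene spans higher (0.915%) and 3 lower (0.0886%), with 229 at an unadjusted p under 0.05. Of the tested spans, 1542 had at least 50 reads of other miRNAs. Since miR-26a gave few of the reads, a shallow span could hardly be called lower, so the higher and lower counts cannot be compared. Scaling by TMM in place of column totals shifted the median of all gene spans from -1.498 to -3.64 on the log2 scale and gave 11 higher and 1547 lower calls. Relative to that shift the higher calls moved with the rest (median shift -2.22). Of the 31, 11 were still called higher under TMM, and 4, with Rcsd1, Stag2 and Laptm5 among them, had a value below 0. Rps12, Reep4, Pim1, Xrcc4, Prkar1a, Tram1, Etf1, Arf6 and Mlf2 were called higher, and mt-Rnr1 lower, in every one of the 12 alternatives on both genotypes that tested them. For mt-Rnr1 the TMM alternative says little, since it called 1547 gene spans lower.

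Rps12 stood highest, with 190 miR-26a reads against 23 of all other non-181 miRNAs in the gene span (log2 difference from the overall ratio 8.76, SE 0.25, edgeR adjusted p = 4.66e-247). The fit pools its estimate of spread over all gene spans. A p this small therefore does not measure how well the libraries agree at a single span. With repeated reads counted once the Rps12 difference was 6.72 (edgeR adjusted p = 3.58e-58). Reep4 had 37 against 22 (6.48, SE 0.44, edgeR adjusted p = 2.50e-46), and Pim1 33 against 34 (5.71, SE 0.44, edgeR adjusted p = 5.99e-36). Xrcc4 had 31 against 77 (4.48, SE 0.42, edgeR adjusted p = 7.83e-24). These 4 were also called in the wild-type libraries alone and in the knockout libraries alone. Over all tested gene spans miR-26a gave 1.70% of the reads, and in these it gave between 28.7% and 89.2%.

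The next calls each rested on few miR-26a reads. Prkar1a, the regulatory subunit of protein kinase A, had 1, 3 and 3 miR-26a reads in the wild type and 1, 2 and 4 in the knockout, against 37 reads of other miRNAs (log2 difference 4.37, SE 0.58, edgeR adjusted p = 8.65e-11). Of its 14 reads, 9 lay in a cluster of 10 non-181 reads at chr11:109668557-109668601, centred 1089 nt before the 3′ end of the span. Every library held a Prkar1a read, and the genotypes overlapped.

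Tram1 had 1, 2 and 1 miR-26a reads in the wild type and 5, 2 and 3 in the knockout, 14 against 63 of other miRNAs (log2 difference 3.60, SE 0.56). Etf1, the factor that releases finished proteins from the ribosome, had 4, 1 and 3 and 0, 2 and 2, 12 against 54 (3.62, SE 0.60). Arf6, a small GTPase of membrane traffic, had 3, 0 and 1 and 4, 1 and 0, 9 against 24 (4.27, SE 0.71). In all of them the genotypes overlapped, and Etf1 and Arf6 lacked reads in 1 and 2 libraries.

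Mlf2 had 9 miR-26a reads against 37 of other miRNAs (log2 difference 3.73, SE 0.68). All 9 lay in 1 cluster of 31 non-181 reads at chr6:124935743-124935846, centred 363 nt before the 3′ end of the span. From Tram1 to Mlf2 the edgeR adjusted p ran from 8.15e-08 to 2.51e-05. Rac2 had 18 against 171 (2.55, SE 0.48, edgeR adjusted p = 2.51e-05), a call that TMM did not keep (edgeR adjusted p = 0.476).

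The remaining higher calls had between 5 and 17 miR-26a reads each. Named after their values were seen, they included Prkcd, a protein kinase C, with 5 against 20 reads (log2 difference 3.71, SE 0.89), the cell cycle factor E2f2 with 6 against 20 (4.003, SE 0.84) and the cohesin subunit Stag2 with 13 against 174 (2.06, SE 0.53). The 6 reads of E2f2 lay in 6 clusters. Without the first wild-type library the edgeR adjusted p was 0.331 for E2f2, 0.467 for Prkcd and 0.0760 for Stag2, and without the first knockout library 0.361 for Prkcd and 0.304 for Stag2. Prkcd and Stag2 were also lost under TMM (0.0691 and 0.696), and Stag2 without the second or the third knockout library (0.0504 and 0.189). Over the 31 higher calls, 21 had more than 50% of their miR-26a reads in 1 cluster. Without the first wild-type library 18 gene spans were called higher, and without the second knockout library 20.

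**Figure D3:**
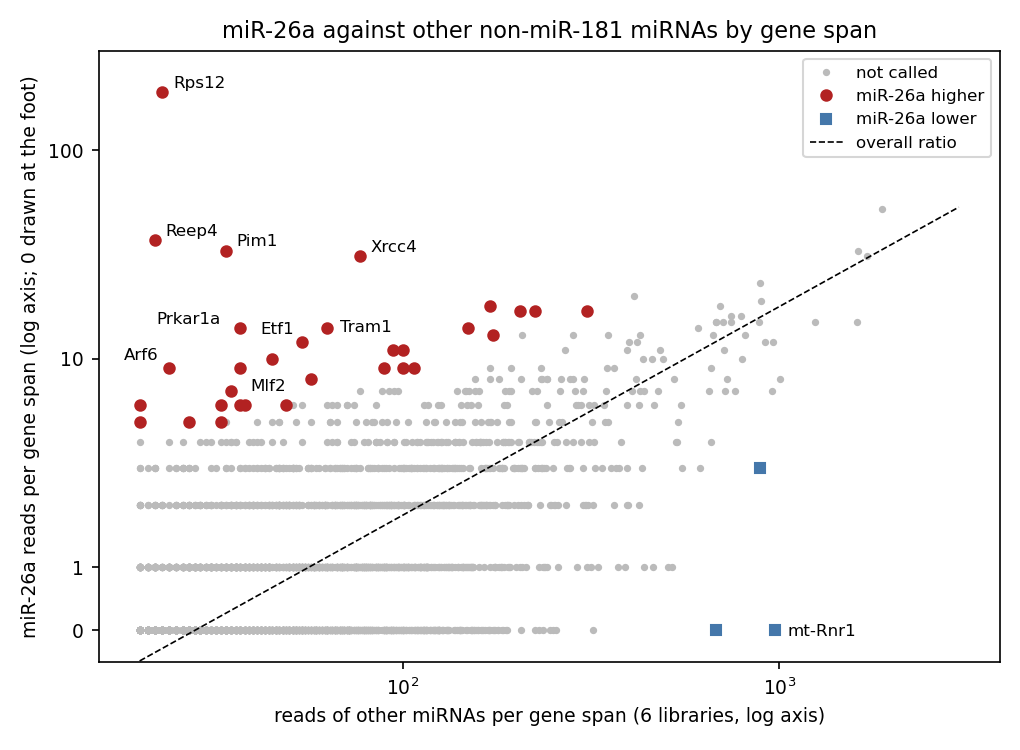
miR-26a reads against the reads of all other non-181 miRNAs for 3387 gene spans, summed over 6 Ago2 IP libraries on logarithmic axes, with the overall ratio as a dashed line. The 31 spans called higher (circles) and 3 called lower (squares) stand out from the grey field, and names mark calls kept in all 12 alternatives on both genotypes that tested them; Rps12 lies farthest from the line.

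The 3 lower calls were a ribosomal RNA and a protein gene of the mitochondrial genome and Actb. mt-Rnr1, a mitochondrial ribosomal RNA, had no miR-26a read against 975 reads of other miRNAs, at least 5.75-fold lower than the overall ratio when 3 reads over the 6 libraries are taken as the floor (edgeR adjusted p = 4.37e-05). ND4, a subunit of respiratory complex I, had none against 678, at least 3.999-fold lower (edgeR adjusted p = 0.00190). The ND4 call was lost with repeats counted once (edgeR adjusted p = 0.207) and with miR-142a-3p left out of the other miRNAs (0.453). Actb, cytoplasmic actin, had 3 against 892 (log2 difference -2.40, SE 0.68, edgeR adjusted p = 0.0437). Of the 12 alternatives on both genotypes, 8 lost the Actb call (adjusted p up to 0.299), among them each library left out but the first wild-type one. None of the 3 lower calls was made in the wild-type or the knockout libraries alone.

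Over the whole mitochondrial genome miR-26a had 2, 0 and 0 reads in the wild type and 4, 1 and 1 in the knockout. That was 0.136% of its reads, against 1.25% (4140 reads) for the other non-181 miRNAs, 9.16-fold lower. This total was looked at after the lower calls were seen. The share differed widely between miRNAs: over the 38 non-181 miRNAs with at least 1000 reads it reached 6.68% (miR-155-5p), and miR-26a ranked 5 from the lowest.

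Whether the difference between miR-26a and the other miRNAs depended on genotype was tested in an interaction fit. In the edgeR interaction fit none of 3387 gene spans was called, and 7 had an unadjusted p under 0.05. The SE of the genotype difference was 0.77 for Rps12 and 1.01 for Reep4 on the log2 scale, so that only large differences could be called. The fit therefore does not show that the genotypes were alike. With each genotype taken alone, 6 (wild type) and 5 (knockout) gene spans were called higher.

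Gene spans with most miR-26a reads were not always those bound out of proportion. The 20 with most reads among the spans seen in all 6 libraries held 597 miR-26a reads (10.2%). Of these, 8 were called higher, and 11 had a miR-26a share within 0.5 to 2 times the overall one. Satb1 had 15, 6 and 2 reads in the wild type and 15, 8 and 6 in the knockout, against 1875 reads of other miRNAs (2.698%, log2 difference 0.64, SE 0.24, edgeR adjusted p = 0.349).

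The other spans near the overall share included genes known for roles in thymocyte development. Themis, a T cell receptor signalling protein, had 31 miR-26a reads against 1711 of other miRNAs (1.78%). Tox, a factor of CD4 lineage development, had 23 against 892 (2.51%), Bcl11b, a factor of T cell commitment, 16 against 791 (1.98%), Tcf12, an E protein, 15 against 747 (1.97%) and cyclin D3 (Ccnd3) 15 against 885 (1.67%). Their reads were dispersed, with 27 clusters for the 31 reads of Themis and 14 for the 23 of Tox.

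Among untested spans the most miR-26a reads were in Nap1l1, a histone chaperone, with 10 against 13 of other miRNAs, in Rpl11, a protein of the large ribosomal subunit, with 9 against 4, and in Ppp1cc, a catalytic subunit of protein phosphatase 1, with 8 against 9. These had too few reads of other miRNAs to enter the fit.

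Changes of single miR-26a targets in the knockout were tested over pairs of a miRNA and a gene span. Among 459 pairs with enough reads, 3 were called (0.654%), and only 1 of the 459 was a miR-26a pair. This was Rps12, which had a log2 change of 0.42 (SE 0.26, edgeR adjusted p = 0.608). Without the filter, 994 miR-26a pairs entered among 37727. edgeR called 1 of the 37727 pairs and none of the 994, so that a miR-26a call was hardly possible at these counts. Of the 994, 31 had an unadjusted p under 0.05, and their lowest adjusted p was 0.636. The matching number over all pairs is not given here. The DESeq2 fit was run on the 459 filtered pairs alone, where Rps12 was the only miR-26a pair, and did not call it. The absence of a call does not show that levels were the same.

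Of the list of 27 targets of miR-26 published for other tissues, 14 had a miR-26a read, and together they had 28 miR-26a reads against 1521 of other miRNAs (1.81%, beside 1.70% over all tested gene spans). Of the 17 tested, 70.6% had a miR-26a read (51.3% of all tested spans), none was called higher or lower, and the median fitted log2 difference was -0.28, beside -1.498 over all tested spans. Spans with no miR-26a read have fitted values that depend on the prior count. Having a miR-26a read also depends on the read depth of a span, and the listed spans were not matched to the others for depth.

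By role, 6 of the 8 signalling genes had a read. Gsk3b, a kinase of Wnt and insulin signalling, and Smad4, the shared mediator of TGF-beta signals, had 3 reads each. Among 7 chromatin genes 3 had a read: Ezh2 had 0, 0 and 0 in the wild type and 1, 1 and 1 in the knockout, against 86 (0.96, SE 0.94, edgeR adjusted p = 0.610), Tet3 and Hmga1 had 1 read each, and Tet1 and Tet2 had none against 26 and 47.

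The knockout change of Ezh2, from these 3 reads, had an adjusted p of 0.636 in the unfiltered edgeR fit. Of 7 cell cycle genes 4 had a read, with 2 in Rb1, the retinoblastoma protein, and 1 each in Ccne1, Cdk6 and Cdk8. Tut4, an enzyme that adds uridines to RNA, had 2. The cytokine and inflammation genes Ptgs2, Il6 and Lif, and Lin28b, an RNA-binding protein that blocks let-7 maturation, had no read of any miRNA.

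The host genes had no miR-26a read. Ctdspl, Ctdsp2 and Ctdsp1 had 22, 27 and 4 reads of other non-181 miRNAs. Within the hairpins themselves 1 miR-26a read lay in Mir26a-2, and none in Mir26a-1 or Mir26b.

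Markers of the labelled cell type were present. The 8 thymocyte markers had 2682 reads of any miRNA (Ptcra, the pre-T cell receptor chain, only 2), against 3 for B cell, 5 for myeloid and 14 for red cell markers, and none for thymic epithelium. Rag1, the V(D)J recombinase, had 12 miR-26a reads against 963 of other miRNAs (1.23%), and none of the thymocyte markers was called.

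Part of the miR-26a clusters was shared with other miRNAs. Of the 4829, 1009 (20.9%) also held a read of another non-181 miRNA, and these had 30.05% of the miR-26a reads. Seen from the other side, 4.01% of the reads of the other non-181 miRNAs and 4.20% of the miR-181 reads of the Ago2 IP lay in a miR-26a cluster. By number, miR-142a-3p led with 5525 reads (41.6% of the other reads there, and 40.9% of the other reads overall), followed by miR-16-5p with 991, let-7a-5p with 571, miR-20a-5p with 533 and miR-17-5p with 525.

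As a share of its own reads, miR-25-3p stood out, with 11.8% in miR-26a clusters against a median of 3.83% over the 37 other miRNAs with at least 1000 reads. It was named after its value was seen. Of its 412 shared reads, 253 came from 1 cluster of Rn18s-rs5 that held 7 miR-26a reads.

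Over 3433 gene spans, the miRNA most like miR-26a in the distribution of its reads was miR-142a-3p (Pearson r = 0.47), followed by miR-16-5p (0.42), miR-17-5p (0.38), let-7f-5p (0.38) and let-7g-5p (0.38). This is a correlation across genes, which are not independent replicates, within the same 6 libraries, and miR-142a-3p, miR-16-5p and miR-17-5p are also among the miRNAs with most reads (135712, 19424 and 13703). None of the 5 has the seed of miR-26a, as their sequences show, with bases 2 to 8 again in capitals.
mmu-miR-142a-3p: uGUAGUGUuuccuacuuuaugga
mmu-miR-16-5p: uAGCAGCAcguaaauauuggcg
mmu-miR-17-5p: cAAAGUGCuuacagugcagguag
mmu-let-7f-5p: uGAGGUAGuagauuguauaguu
mmu-let-7g-5p: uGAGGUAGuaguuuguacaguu

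At the sites of miR-181, the mean share of miR-26a differed between genotypes by less than the spread of the libraries. Such sites were the 6819 clusters with at least 10 reads of the miR-181-5p family in the enriched wild-type libraries. They held 9.75%, 9.58% and 9.78% of the miR-26a reads in the wild type and 11.4%, 9.13% and 8.61% in the knockout. The Rps12 cluster, with 143 miR-181 reads in the enriched wild-type libraries, was among these sites. It alone gave 35, 19 and 22 of the miR-26a reads there in the wild type and 50, 31 and 33 in the knockout. Shares without it were not computed. The means were 9.70% ± 0.111 (SD, n = 3) and 9.73% ± 1.51 (SD, n = 3), a difference of 0.0261 percentage points (exact two-sided permutation test, p = 1, adjusted to 1). The first knockout library lay above and the other 2 below the wild type, and without it the difference was -0.833 points.

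The other non-181 miRNAs had 11.7% ± 0.203 (SD, n = 3) of their reads at these sites in the wild type and 10.2% ± 0.114 (SD, n = 3) in the knockout, without overlap. That difference, and whether it differs from that of miR-26a, was not tested.

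miR-26a reads lay on the sense strand and mostly away from the ends of gene spans. In protein-coding spans of known strand 98.5% of 4330 reads were sense, against 97.9% for the other miRNAs. The last 2 kb of the span held 21.3% of the sense reads, against 20.3% for the others. Without the single site in Rps12 it was 17.6%, with 16.4%, 17.1% and 19.1% in the wild type and 16.9%, 20.4% and 16.9% in the knockout, and the other miRNAs had between 20.0% and 20.7% in the 6 libraries. Only 1 library of miR-26a reached that range. Among the 20 higher calls of known strand, all 20 had their largest cluster on the sense strand, and 10 had it within 2 kb of the 3′ end. These counts are of spans, not reads, and were not made for spans that were not called. Some of the largest clusters rested on very few miR-26a reads, with 1 in E2f2.

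**Figure D4:**
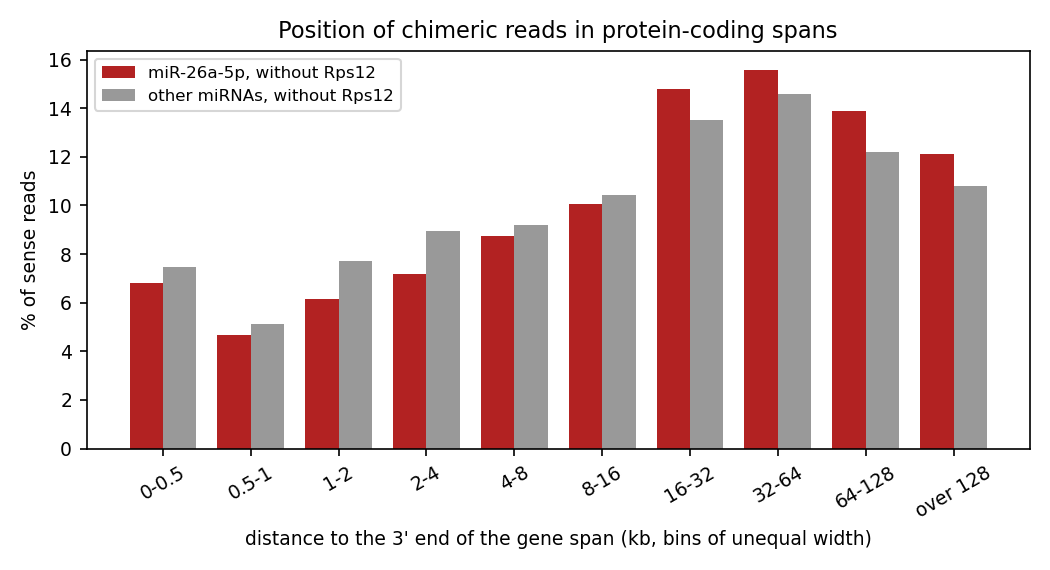
Percentage of sense reads in protein-coding gene spans by distance to the 3′ end of the span, in bins of unequal width, for miR-26a (4075 reads) and all other non-181 miRNAs of the 6 Ago2 IP libraries, Rps12 left out of both. miR-26a is lower than the others in the bins up to 16000 nt and higher in those beyond, with 6.13% against 7.70% at 1000 to 2000 nt and 15.6% against 14.6% at 32000 to 64000 nt.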

How the data were processed

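The deposited files hold unscaled read counts by the form of their lines: a line gives the 1-nt position, strand and miRNA of a single chimeric read. The submitters' processing notes name Bowtie2 2.4.5, STAR 2.7.10, SAMtools 1.11, UMI-tools 1.1.1 and bedtools 2.30.0, with the builds mm10 and GRCm38.p6. Libraries of the Ago2 IP held 43983 to 117849 reads. Repeats of a position, strand and miRNA were 2.86% to 4.71% of the miR-26a reads and were kept.

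Reads of all miRNAs in the 12 libraries were joined at 20 nt. Names came from RefSeq gene spans. Hairpins took the read first, coding genes came next, and reads in several spans of equal standing stayed unnamed. Gene strand was known only for genes in the RefSeq promoter table.

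miRNAs and pairs of miRNA and gene were compared between genotypes with edgeR 4.0.16 (quasi-likelihood, filterByExpr with a minimum count of 10, library sizes and TMM from non-181 reads) in R 4.3.3. miR-26a was set against the other miRNAs by gene with the library as a block and column totals as sizes, a test added after the data were seen. DESeq2 1.42.0 was an alternative. Calls needed an adjusted p of at most 0.05. Permutation tests and intervals used scipy 1.17.1. The fits were tested on simulated data.

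The planned comparison of miR-26a with miR-26b could not be run, since no read named miR-26b. Named items were the 20 gene spans with most reads among those in all libraries, up to 10 calls of smallest p in each direction, the 10 largest clusters, the published list, host genes, and 5 miRNAs by likeness and by shared reads. Members and lists were chosen with earlier results of these data known. Any 2 libraries of a genotype differed over gene spans beyond counting noise (chi-square test, largest p = 0.00259) and were kept as separate replicates. Seed matches in targets and exons need a genome and were not analysed here. The values of a few genes that the rule selects are not reported here.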

Additional observations from a re-analysis of the deposited data

How the results depend on the processing

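The share of miR-26a and its knockout change had no call in any setting but the scaling to all reads (0.57, adjusted p = 5.44e-06, edgeR). The change was -0.0372 without the low-count filter and ran from -0.0624 to 0.0654 as each library was left out, and the difference in share from -0.0334 to 0.136 points. With the replicate number as a block the knockout change of miR-26a was 0.0209 (edgeR adjusted p = 0.850), with 25 miRNAs called. In the pair fit with that block Rps12 was the only miR-26a pair tested, and it was not called. Libraries of the same number had correlations of -0.186, 0.0164 and 0.0270, and those of different numbers ran from -0.106 to 0.114. With 3 libraries a genotype, these values cannot decide whether the numbers pair the libraries. Over all miRNAs 89 were called with all reads as sizes, 24 without the filter, and 3 to 17 with a library left out.

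The higher calls of miR-26a by gene numbered 18 from spans with at least 50 other reads, 11 by TMM, 67 by DESeq2, 6 in the wild type alone, 5 in the knockout alone, and 18 to 27 with a library left out. The lower calls numbered 1547 by TMM, 1 with repeats counted once, and 0 in each genotype alone, where 3 libraries remain (edgeR). The causes were not tested.

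At miR-181 sites the difference was -0.0605 points for sites of at least 3 miR-181 reads, -0.247 for at least 50, -0.467 with repeats counted once, and -0.833 to 0.586 with a library left out. Joined only at identical positions, 1 cluster had a read in every library. Joined at 20 nt, 8 to 15 clusters had one in every remaining library when a library was left out (15 without the third wild-type library). The shared part was 29.3% at 50 nt, 3.88% at identical positions and 19.1% to 20.3% with a library left out. Planned tests of miR-26b were not run. Depth limits single targets: 1549 of 2543 gene spans rest on 1 read.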
